A study of Homo sapiens with 8 samples.

Results

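Transcript levels of 56 genes for matrix glycoproteins and basement membrane proteins were examined in MDA-MB-157 cells cultured in low or high glucose. The genes were taken by symbol from a list of matrix genes, all 56 were found among the 21059 genes of the table, and they fell into 4 classes with 14 basement membrane genes, 17 elastic fiber genes, 13 matricellular genes and 12 other glycoproteins. MDA-MB-157 is an established human breast cancer line without the estrogen receptor, so a single line stands for the tumor type. The low glucose group (4 libraries) was kept in 5 mM glucose and the high glucose group (4 libraries) in 25 mM glucose, a level used to model hyperglycemia, for 48 hours. Per the study's methods, the medium of both groups held no serum and all cells were conditioned in low glucose before part of them was switched. An osmotic control, such as mannitol, was not among these 8 libraries. The labels do not say that the replicates came from separate cultures, so the p-values measure the spread between these libraries, which may be technical.

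Basement membranes are thin sheets of laminin trimers and type IV collagen that nidogens, perlecan and agrin tie together, and they separate epithelium from stroma. Elastic fibers hold a core of elastin on a scaffold of fibrillin microfibrils, to which fibulins, emilins and latent TGF-β binding proteins attach. Matricellular proteins such as SPARC and the thrombospondins sit in the matrix without building its frame and tune adhesion and growth factor signals, and fibronectin gives cells a fibrillar network to pull on.

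Levels are given as CPM, read counts scaled to the depth of the library, corrected further by the trimmed mean of M values (TMM), a factor for differences in library composition. An estimated 10389400 to 12104000 reads stood behind each low glucose library and 9721500 to 12482500 behind each high glucose library. A level equal to 3 reads, between 0.212 and 0.267 CPM by library, was the lowest read here as detected. These limits cover counting error only. High glucose replicate 1 stood apart from its group. Across 11255 genes with a mean of 5 CPM or more, the Spearman correlation across genes between transcript length and the deviation of a library from its fellow libraries was -0.65 in high glucose replicate 1, 0.25 to 0.46 in the other high glucose libraries and -0.13 to 0.06 at low glucose. The fellows of those other libraries include high glucose replicate 1, so their positive values are not independent of its deviation. Among the 16 matrix genes of at least 5 CPM with transcripts longer than 6000 bases, high glucose replicate 1 held the lowest value of its group for 13, and among the 26 shorter ones for 4. Calls that were gained or lost without it are therefore given without it as well. The cell type was checked against marker genes. Of 6 mesenchymal markers, all 6 exceeded 1 CPM, with VIM (vimentin) at 4091 ± 28.5 CPM in low and 2967 ± 210.3 CPM in high glucose, whereas 8 of 12 epithelial markers were under 1 CPM in both groups and KRT14 and CLDN3 were at 0 in every library. Of the 12, 3 fell (25.0%, beside 24.8% of all genes) and 2 rose (16.7%, beside 22.0%). The epithelial keratins KRT8 and KRT18 fell, from 131 ± 5.95 to 88.3 ± 10.3 CPM and from 233 ± 4.85 to 170.1 ± 18.1 CPM (adjusted p = 0.00117 and 0.00149), and EPCAM, an epithelial adhesion molecule, rose from 4.4998 ± 0.414 to 6.996 ± 0.445 CPM (adjusted p = 0.00104). The part of these shifts in the matrix results was not tested. ESR1, the estrogen receptor gene, was at 0.121 and 0.0598 CPM, below the limit of 3 reads. Of the 3 breast receptor genes listed, 1 fell (33.3%, beside 24.8% of all genes) and none rose. ERBB2 fell from 63.6 ± 1.29 to 39.2 ± 2.58 CPM (adjusted p = 3e-05). PGR was above the limit of 3 reads, at 4.76 ± 0.36 and 5.35 ± 0.597 CPM, and did not pass the test (adjusted p = 0.255). The summed level of 5 endothelial markers was 3.99 to 4.50 CPM in low and 4.07 to 5.60 CPM in high glucose, with VWF and CDH5 lower and PECAM1 and KDR higher at high glucose, all 4 under 3 CPM on average. The sum of 4 leukocyte markers was 10.7 to 14.3 and 13.3 to 17.97 CPM. CD68 made up most of it and did not pass the test (adjusted p = 0.494), CD14 rose from 1.25 ± 0.337 to 4.24 ± 1.33 CPM (adjusted p = 0.00252), and PTPRC, the defining leukocyte marker, was at 0.0997 and 0.123 CPM.

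Most of the matrix genes were lower at high glucose. Of the 56 genes, 36 fell, 6 rose and 14 did not pass the test, a limma model on log2(CPM + 1) whose p-values were adjusted over all 21059 genes with a threshold of 0.05. The 36 lower genes are 64.3% of the list, where 24.8% of all genes were lower, and the 6 higher genes are 10.7%, where 22.0% of all genes were higher. Because the list was chosen with earlier results of these data known, these shares describe the list and do not test it. A fall of at least 1 on the log2 scale was seen for 15 of the 56, beside 2.45% of all genes. The 4 values at high glucose lay entirely below the 4 at low glucose for 36 genes (23.6% of all genes) and entirely above them for 5 (20.9% of all genes). The median log2 change, high minus low glucose, was -0.63 for the matrix genes and -0.01 for all genes. In cultured cells measured in bulk, fewer cells of a kind and less RNA per cell cannot be told apart.

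The level of a gene bears on what the test can call, so the genes that reached a mean of 5 CPM in their higher group were also counted alone. Of these 42 genes, 31 fell (73.8%, beside 33.8% of the 11643 genes of that level), 4 rose (9.52%, beside 33.3%) and 7 did not pass, and 67.1% of all genes of that level passed in either direction. Groups that did not overlap were found for 31 lower genes (33.0% of all genes of that level) and 3 higher genes (32.3%), and the median change was -0.71 against -0.01 for all genes of that level. Of the 7 genes between 1 and 5 CPM, 5 fell (71.4%) and 1 rose (14.3%). The share of all genes in that range was not counted, but 32.6% of all genes with a mean of at least 1 CPM fell and 29.5% rose. Of the 7 genes under 1 CPM in both groups, none fell and LAMA1 alone rose. The share of all genes under 1 CPM that were called was not counted, so these 7 cannot be set against it.

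**Figure D1:**
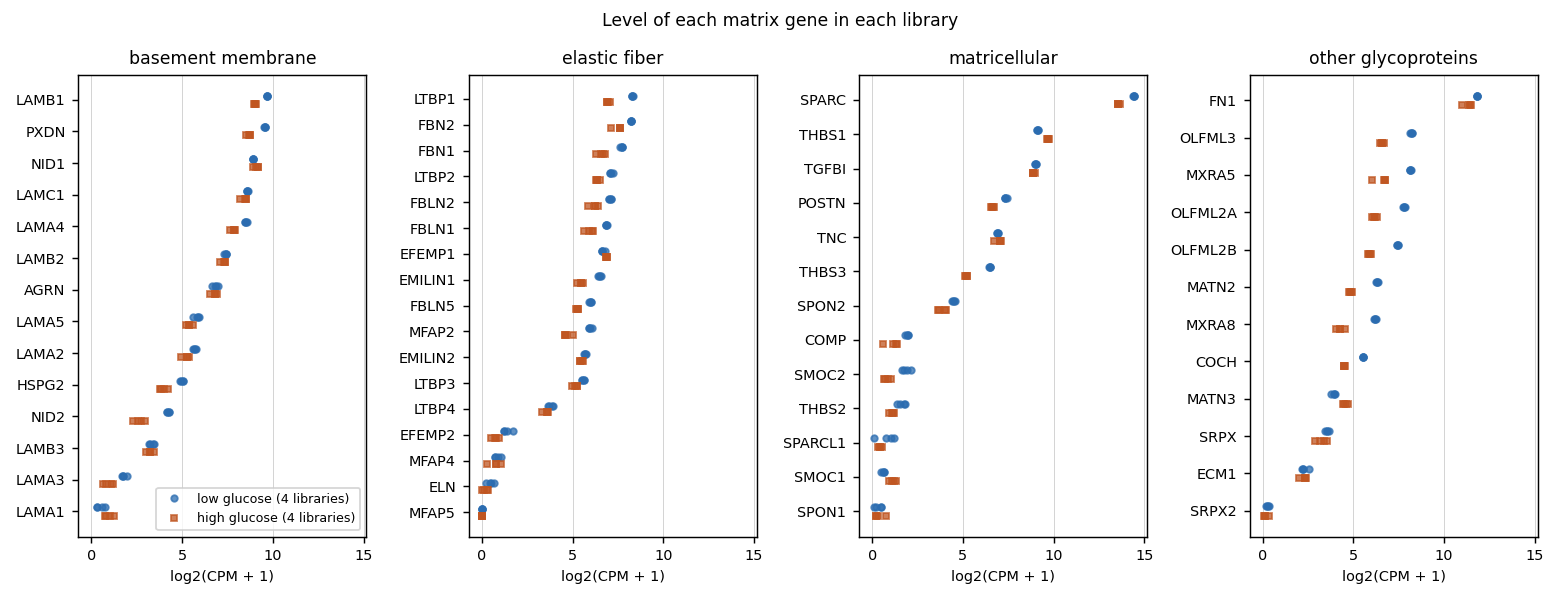
Level of each of the 56 genes on the log2(CPM + 1) scale in the 4 low glucose libraries (circles) and the 4 high glucose libraries (squares), by class and sorted by the low glucose mean. SPARC had the highest CPM, the squares lie to the left of the circles for most genes, and the exceptions include THBS1, MATN3, NID1 and EFEMP1.

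Among genes of at least 5 CPM, MXRA8 and OLFML2A had the largest falls and MATN3 and THBS1 the largest rises on the log2(CPM + 1) scale, which understates the change of low genes. By the ratio of the group means, low over high, NID2 (3.33) exceeded OLFML2A (3.14) and came after MXRA8 (3.94). MXRA8 (chr1:1352689-1363541 of GRCh38.p14, the build of all gene positions given here), a cell surface protein with immunoglobulin domains that some alphaviruses use as a receptor, was at 71.8, 68.9, 75.7 and 73.3 CPM in low glucose replicates 1 to 4 and at 22.2, 17.9, 18.1 and 15.3 CPM in the high glucose libraries. The groups lay far apart, each high glucose library holding a fraction of the low glucose level, with a log2 change of -1.93 (SE 0.10, adjusted p = 9.03e-06). OLFML2A (chr9:124777133-124814882), a secreted glycoprotein with an olfactomedin domain, was at 214, 230.0, 222 and 220.0 CPM at low glucose and at 64.02, 72.3, 76.95 and 68.5 CPM in high glucose. No value of either group came near the other, and the log2 change was -1.64 (SE 0.06, adjusted p = 2e-06). MATN3 (chr2:19992052-20012668), a matrilin that links collagen fibrils in cartilage, went the other way, from 14.5, 14.8, 12.8 and 14.6 CPM at low glucose to 25.1, 21.1, 20.3 and 23.6 CPM in high glucose. Every high glucose library exceeded every low glucose library, and the log2 change was 0.63 (SE 0.08, adjusted p = 0.000501). THBS1 (chr15:39581079-39599466), the thrombospondin that activates latent TGF-β and restrains angiogenesis, was at 548, 563, 559 and 549 CPM at low glucose and at 777, 821, 838 and 839.9 CPM in high glucose. It rose by 0.56 (SE 0.03, adjusted p = 1.31e-05) with no overlap between the groups.

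The 250 bases before the start site of these 4 genes are shown as examples of the regulatory sequence in front of genes that moved in opposite directions, 5′ to 3′ on the strand of the gene, from RefSeq on GRCh38.p14. Capitals mark GGAATG or its reverse complement CATTCC, the element bound by TEAD factors, which was found in the windows of MATN3 (149 and 131 bases before the start) and THBS1 (46 bases before the start). The windows are chr1:1358548-1358797 on the minus strand for MXRA8, where the start used lies inside the span of the gene, chr9:124776883-124777132 on the plus strand for OLFML2A, chr2:20012669-20012918 on the minus strand for MATN3 and chr15:39580829-39581078 on the plus strand for THBS1.
MXRA8: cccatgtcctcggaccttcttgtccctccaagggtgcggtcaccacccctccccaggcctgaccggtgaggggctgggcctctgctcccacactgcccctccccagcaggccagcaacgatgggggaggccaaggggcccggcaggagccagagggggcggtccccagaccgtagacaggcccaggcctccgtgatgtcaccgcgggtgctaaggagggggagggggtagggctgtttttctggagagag
OLFML2A: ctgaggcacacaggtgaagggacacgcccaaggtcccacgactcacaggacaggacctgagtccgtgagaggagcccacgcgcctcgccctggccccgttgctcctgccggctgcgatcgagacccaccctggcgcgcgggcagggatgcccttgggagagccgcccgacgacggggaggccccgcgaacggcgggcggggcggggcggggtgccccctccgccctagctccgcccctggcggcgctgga
MATN3: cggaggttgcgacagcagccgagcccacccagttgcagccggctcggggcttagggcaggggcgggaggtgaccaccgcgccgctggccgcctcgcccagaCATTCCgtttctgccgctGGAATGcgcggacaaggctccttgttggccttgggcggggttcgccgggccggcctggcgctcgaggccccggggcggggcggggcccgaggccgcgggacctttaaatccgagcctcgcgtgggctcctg
THBS1: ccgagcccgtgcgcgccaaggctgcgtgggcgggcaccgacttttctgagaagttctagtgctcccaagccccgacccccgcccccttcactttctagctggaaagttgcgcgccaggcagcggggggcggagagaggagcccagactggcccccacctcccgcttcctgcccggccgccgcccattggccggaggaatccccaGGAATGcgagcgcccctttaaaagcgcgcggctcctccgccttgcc

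A promoter window was matched for 47 of the 56 genes, and 4 motifs were searched on both strands. GGAATG or CATTCC was in 11 of 47 windows (23.4%) and in 11.9% of all 27305 promoter windows of the same length, in 7 of 34 lower genes (among them SPARC, FBN1 and OLFML3) and in 2 of 4 higher genes. The AP-1 element, TGACTCA or TGAGTCA, was in 6 of 47 windows (12.8%, beside 4.16% of all), among them those of POSTN, MFAP2 and LAMA3. The E-box CACGTG was in the window of FBN2 alone (2.13%, beside 6.49% of all), and the TATA box, TATAAA or TTTATA, was in 7 of 47 (14.9%, beside 11.1%), among them SMOC1, which rose, and POSTN, SPON2 and COCH, which fell. A match describes the letters of a window and not a bound site, and a window without a match says nothing of the factor.

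More basement membrane genes fell than rose, with falls in several laminin chains, in NID2 and in the enzyme PXDN. Of the 14 genes, 8 fell (57.1%, beside 24.8% of all genes), 2 rose (14.3%, beside 22.0%) and 4 did not pass the test. Their median log2 change was -0.45 (range -1.58 to 0.47). Among the 12 that reached 5 CPM, 7 fell (58.3%, beside 33.8% of all genes of that level) and 1 rose (8.33%, beside 33.3%). The laminin chains of highest level were those of a mesenchymal trimer. Per kilobase of transcript, LAMB1 was at 144, LAMA4 at 49.97 and LAMC1 at 48.6 CPM per kb at low glucose, followed by LAMB2 at 29.4, LAMA2 at 5.19 and LAMA5 at 4.82 CPM per kb.

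LAMB1 (chr7:107923799-108003161), the β1 chain shared by many laminins, was at 813, 810.3, 815 and 816 CPM in the low glucose libraries and at 490.3, 520.5, 529.9 and 523 CPM in the high glucose libraries. The low glucose values were nearly equal and every high glucose value was lower, with a log2 change of -0.66 (SE 0.03, adjusted p = 5.02e-06). LAMA4 (chr6:112107931-112254985), the α4 chain of vascular and mesenchymal laminins, was at 356, 349.7, 360.1 and 379 CPM at low glucose and at 195, 230.4, 231 and 243 CPM in high glucose. It fell without overlap by 0.69 on the log2 scale (SE 0.07, adjusted p = 0.000188). Their usual partner LAMC1, the γ1 chain, was at 385 ± 8.58 CPM in low and 342 ± 32.1 CPM in high glucose, a difference of -0.18 (SE 0.07) that did not pass the test (adjusted p = 0.07), although the groups did not overlap. Without high glucose replicate 1 the difference was -0.11 and passed (adjusted p = 0.00957).

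The other α chains had lower levels per kilobase than LAMA4. LAMA2, the α2 chain of muscle and nerve laminin, fell from 50.3 ± 1.74 to 36.1 ± 4.93 CPM (log2 change -0.48, SE 0.10, adjusted p = 0.00518) and LAMA5, the α5 chain of many adult basement membranes, from 55.03 ± 5.28 to 41.1 ± 4.22 CPM (log2 change -0.41, SE 0.09, adjusted p = 0.00932). LAMA3, a chain of the laminin that anchors epithelium to dermis, was at 2.45 ± 0.269 CPM in low and 0.939 ± 0.356 CPM in high glucose and also fell (adjusted p = 0.00199). Its partner LAMB3 differed by -0.10 (SE 0.11, adjusted p = 0.521) at 9.003 ± 0.946 and 8.38 ± 1.15 CPM, with overlapping groups. LAMB2, the β2 chain of kidney and synaptic laminins, was at 167 ± 6.96 and 154 ± 14.2 CPM (log2 difference -0.12, SE 0.07, adjusted p = 0.218). With the trend of each library on transcript length removed and high glucose replicate 1 left out, LAMB2 was called lower (-0.18, adjusted p = 0.0107). LAMA1, the α1 chain of the early embryo, was close to the detection limit at low glucose (0.409 ± 0.212 CPM) and at 0.957 ± 0.303 CPM in high glucose, a rise of 0.47 (SE 0.14, adjusted p = 0.03). That call was lost when either low glucose replicate 3 or 4, or high glucose replicate 3 or 4, was left out (adjusted p = 0.0776, 0.0766, 0.075 and 0.0649).

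The 2 nidogens, which bridge the laminin and collagen networks, differed in opposite directions. NID2 (chr14:52004809-52069059) was at 16.6, 18.6, 16.7 and 18.6 CPM at low glucose and at 3.92, 5.61, 6.71 and 4.91 CPM in high glucose. All high glucose values were far below the lowest low glucose value, and the log2 change was -1.58 (SE 0.14, adjusted p = 8.58e-05). Exons of RTRAF on the other strand cover 30.7% of the annotated exon bases of NID2, and RTRAF fell from 85.3 to 68.6 CPM, a change of -0.31. NID1 was at 477 ± 4.12 CPM in low and 539.5 ± 43.99 CPM in high glucose and was called higher by 0.17 (SE 0.06, adjusted p = 0.0453) with overlapping groups, because high glucose replicate 1 (478 CPM) lay within the low glucose range. Leaving out any library other than high glucose replicate 1 ended the call (adjusted p = 0.0847 to 0.106), whereas without that library the rise was 0.23 (adjusted p = 0.000569).

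PXDN (chr2:1631887-1744901), the peroxidase that crosslinks type IV collagen, was at 739.7, 766, 746 and 770.1 CPM at low glucose and at 369, 426, 431 and 413 CPM in high glucose. The 2 groups lay far apart, and it fell by 0.88 (SE 0.05, adjusted p = 1.46e-05). HSPG2 (chr1:21822244-21937310), which encodes the heparan sulfate proteoglycan perlecan, was at 28.1, 31.6, 29.3 and 32.2 CPM and at 12.6, 17.7, 15.1 and 13.01 CPM in the same order. The fall of 1.01 (SE 0.11, adjusted p = 0.000239) left no overlap. AGRN, the proteoglycan that clusters acetylcholine receptors at synapses, was at 113 ± 10.6 and 108 ± 12.9 CPM with overlapping groups (log2 difference -0.07, SE 0.10, adjusted p = 0.633), and was called lower with the length trend removed and high glucose replicate 1 left out (-0.18, adjusted p = 0.0277). Of 8 basement membrane collagen genes listed beside these, 4 fell (50.0%, beside 24.8% of all genes), 1 rose (12.5%, beside 22.0%) and 3 did not pass. The 4 that reached 5 CPM all fell, where 33.8% of all genes of that level fell. COL4A1 and COL4A2, the chains of the ubiquitous type IV collagen, fell from 2308 ± 81.6 to 1102 ± 78.8 CPM and from 2012 ± 84.99 to 988 ± 51.8 CPM (log2 changes -1.07 and -1.03, SE 0.06 and 0.05, adjusted p = 1.6e-05 and 9.8e-06). COL18A1, the source of endostatin, fell by 0.97 (SE 0.08, adjusted p = 9.19e-05).

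Most elastic fiber genes fell. Of 17 genes, 12 fell (70.6%, beside 24.8% of all genes), 1 rose (5.88%, beside 22.0%) and 4 did not pass the test, with a median log2 change of -0.72 (range -1.32 to 0.20). Of the 13 that reached 5 CPM, 11 fell (84.6%, beside 33.8% of all genes of that level) and 1 rose (7.69%, beside 33.3%). The summed level of all 17 was 1626 ± 16.5 CPM in low and 928 ± 23.7 CPM in high glucose (mean ± SD, n = 4 libraries in each group, as for every group mean given here), 1.75 times higher at low glucose.

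The fibrillins, whose polymers are the microfibrils themselves, both fell. FBN1 (chr15:48408313-48645709) was at 208, 210.4, 209 and 197 CPM at low glucose and at 78.4, 93.3, 102 and 109 CPM in high glucose. Its log2 change of -1.11 (SE 0.10, adjusted p = 8.87e-05) left the groups well separated. FBN2 (chr5:128257909-128538245), the fibrillin of development, was at 294, 302, 303 and 299 CPM and at 140.0, 195, 192 and 198 CPM, with high glucose replicate 1 below its group. It fell by 0.73 (SE 0.11, adjusted p = 0.00136). MFAP2 (chr1:16974502-16981583), a small glycoprotein bound to microfibrils, was at 58.7, 65.01, 58.01 and 61.8 CPM in low and 31.8, 24.3, 23.01 and 22.9 CPM in high glucose. Here high glucose replicate 1 was the highest of its group and still far below the low glucose libraries (log2 change -1.23, SE 0.11, adjusted p = 8.56e-05). MFAP4 was under 1 CPM on average in both groups (0.817 ± 0.198 and 0.695 ± 0.371 CPM, adjusted p = 0.614), and MFAP5 was at 0 in every library.

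The latent TGF-β binding proteins, which hold the growth factor in the matrix, differed in the size of the change. LTBP1 (chr2:32946953-33399509) was at 321, 306, 307 and 308 CPM at low glucose and at 119, 117, 124 and 134 CPM in high glucose, a wide gap with a log2 change of -1.32 (SE 0.04, adjusted p = 1.9e-06). LTBP2 (chr14:74498183-74612237), the member that binds microfibrils but not latent TGF-β, was at 134, 135, 146 and 139 CPM and at 78.1, 81.1, 89.9 and 80.9 CPM. It fell by 0.74 (SE 0.05, adjusted p = 2.52e-05) with no overlap. LTBP3 fell from 46.9 ± 2.01 to 34.4 ± 2.92 CPM, a change of -0.44 (SE 0.06, adjusted p = 0.0012), and LTBP4 was at 12.9 ± 1.31 and 10.6 ± 1.03 CPM, a difference of -0.25 (SE 0.09) that did not pass (adjusted p = 0.0595). Without low glucose replicate 1 the difference was -0.31 and passed (adjusted p = 0.0368).

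Fibulins connect elastin, microfibrils and basement membranes. FBLN1 (chr22:45502883-45601135) was at 112, 116, 113 and 119 CPM at low glucose and at 70.1, 65.9, 59.6 and 49.4 CPM in high glucose, and FBLN2 (chr3:13549125-13638404) at 125, 130.1, 135 and 136 CPM and at 84.1, 74.5, 75.4 and 57.6 CPM. For both, high glucose replicate 4 was the lowest library and replicate 1 the highest of the high glucose group, without reaching the low glucose values. The log2 changes were -0.91 (SE 0.10, adjusted p = 0.000323) and -0.86 (SE 0.11, adjusted p = 0.000578). FBLN5 (chr14:91869411-91947694), needed for elastic fiber assembly, was at 59.8, 64.02, 63.1 and 61.3 CPM and at 38.6, 36.3, 36.04 and 38.3 CPM, and the 2 tight groups gave a fall of 0.72 (SE 0.03, adjusted p = 5.57e-06). EFEMP2, which brings lysyl oxidase to elastin, fell at a low level, from 1.65 ± 0.473 to 0.685 ± 0.195 CPM (log2 change -0.65, SE 0.14, adjusted p = 0.00733). EFEMP1, a fibulin of the eye and of fascia, was the exception in the class and rose from 100.3 ± 5.52 to 116 ± 1.14 CPM without overlap, by 0.20 (SE 0.04, adjusted p = 0.0035). With quantile normalization its change was 0.08 and no longer passed (adjusted p = 0.144).

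Emilins lie where elastin meets the microfibrils. EMILIN1 (chr2:27078615-27086403) was at 82.9, 90.5, 87.9 and 92.5 CPM at low glucose and at 45.9, 42.5, 43.2 and 36.3 CPM in high glucose. It fell by 1.06 (SE 0.07, adjusted p = 3.07e-05), and no library came near the values of the other group. EMILIN2 fell from 50.4 ± 1.66 to 43.7 ± 2.396 CPM, by 0.20 (SE 0.04, adjusted p = 0.00742). ELN, the gene of elastin, was near the detection limit in both groups (0.384 ± 0.173 and 0.151 ± 0.132 CPM, adjusted p = 0.102), and was called lower without low glucose replicate 2 (-0.34, adjusted p = 0.0388). Per kilobase of transcript, ELN was at 0.113 CPM per kb at low glucose, beside 17.7 for FBN1. Of 8 genes for enzymes and helpers of elastic fibers, 5 fell (62.5%, beside 24.8% of all genes), 1 rose (12.5%, beside 22.0%) and 2 did not pass. Among the 5 that reached 5 CPM, 4 fell and 1 rose, where 33.8% of all genes of that level fell and 33.3% rose. LOXL1, the lysyl oxidase of elastin, fell from 29.9 ± 2.37 to 12.4 ± 1.07 CPM (log2 change -1.21, SE 0.08, adjusted p = 2.08e-05), and ADAMTS10, a protease bound to fibrillin, from 73.9 ± 7.72 to 23.6 ± 2.93 CPM (log2 change -1.61, SE 0.11, adjusted p = 2.62e-05). LOX rose from 5.23 ± 0.708 to 10.9 ± 0.127 CPM (log2 change 0.94, SE 0.08, adjusted p = 0.000104).

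**Figure D2:**
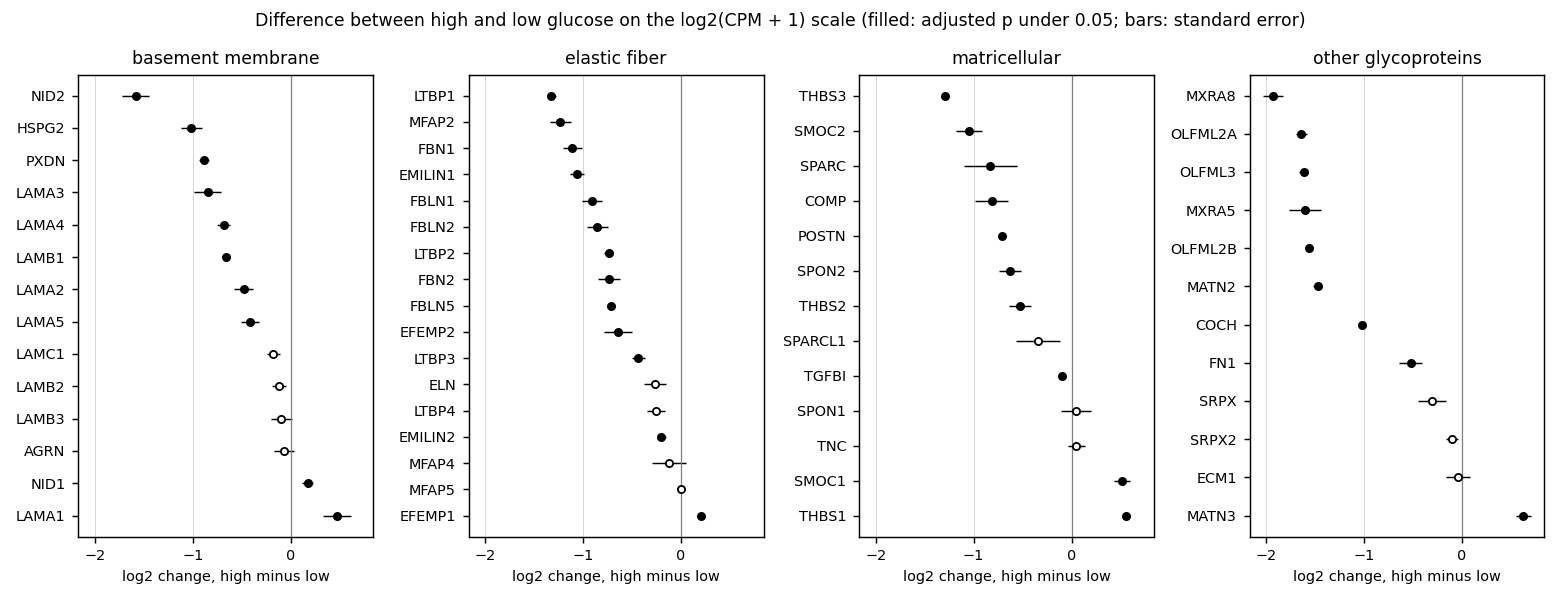
Log2 change of each of the 56 genes, high minus low glucose, with its standard error as a bar, by class, with filled points for genes that passed an adjusted p of 0.05 and open points for those that did not. In the class of other glycoproteins 7 genes lie below -1, in the elastic fiber class 4, and the largest changes to the right are those of MATN3 and THBS1.

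The matricellular class held the gene with the highest CPM of the table. Of 13 genes, 8 fell (61.5%, beside 24.8% of all genes), 2 rose (15.4%, beside 22.0%) and 3 did not pass the test. Their median log2 change was -0.53 (range -1.29 to 0.56). Among the 7 that reached 5 CPM, 5 fell (71.4%, beside 33.8% of all genes of that level) and 1 rose (14.3%, beside 33.3%). SPARC (chr5:151661096-151686915), which encodes a collagen-binding glycoprotein also called osteonectin, was at 21387, 21801, 21594 and 22037 CPM in the low glucose libraries and at 12829, 12035, 12088 and 11953 CPM in the high glucose libraries. In CPM, not corrected for length, it ranked 1 among all genes in both groups, and it took 2.46% of the summed CPM in low and 1.41% in high glucose. The groups lay far apart, with a ratio of low to high of 1.78 and a log2 change of -0.83, but the fit, which sets the spread of a gene partly by its level, gave SPARC an SE of 0.27 and an adjusted p of 0.0384. The call was lost when any library other than high glucose replicate 1 was left out (adjusted p = 0.0929 to 0.132) and with a pseudocount of 0.1 (0.0508), whereas without the trend of spread on level the SE was 0.0272 and the adjusted p 2.52e-06, and without high glucose replicate 1 the adjusted p was 0.00124.

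The 12 matricellular genes other than SPARC summed to 1460 ± 17.1 CPM in low and 1569 ± 27.6 CPM in high glucose, so that their sum was higher at high glucose in every library although most of them fell. THBS1, described above, gave the most CPM to that sum in both groups. THBS3 (chr1:155195588-155209178), a thrombospondin of bone and cartilage, was at 86.6, 87.8, 90.01 and 87.4 CPM at low glucose and at 36.96, 35.8, 33.5 and 35.4 CPM in high glucose. The replicates were close together and the groups far apart, with a log2 change of -1.29 (SE 0.03, adjusted p = 8.1e-07). Exons of MTX1 on the other strand overlap 29.1% of the annotated exon bases of THBS3 together with those of an antisense transcript, and MTX1 fell by 0.30. THBS2 fell at a low level, from 2.096 ± 0.4099 to 1.13 ± 0.179 CPM (log2 change -0.53, SE 0.11, adjusted p = 0.00687), and COMP, the cartilage thrombospondin, from 2.797 ± 0.234 to 1.19 ± 0.469 CPM (log2 change -0.82, SE 0.17, adjusted p = 0.00575).

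POSTN (chr13:37562585-37598768), periostin, a ligand of integrins in healing and tumor stroma, was at 159, 158, 169.6 and 158 CPM at low glucose and at 96.1, 91.9, 101 and 104 CPM in high glucose. It fell by 0.71 (SE 0.04, adjusted p = 1.84e-05), and low glucose replicate 3 was above its group. TGFBI, a relative of periostin, was at 506 ± 11.2 and 473 ± 16.9 CPM with overlapping groups. Its fall of 0.10 (SE 0.03, adjusted p = 0.0407) was lost when any library other than high glucose replicate 1 was left out (adjusted p = 0.0562 to 0.107) and with median-of-ratios scaling (0.173). SPON2 (chr4:1166932-1208844), a secreted protein of innate immunity, was at 20.6, 21.8, 19.96 and 22.7 CPM and at 15.8, 15.1, 11.3 and 11.998 CPM. The high glucose values spread from 11.3 to 15.8 CPM and stayed below the low glucose values, a fall of 0.62 (SE 0.11, adjusted p = 0.0031).

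The SPARC relatives SMOC1 and SMOC2 differed in direction at low levels. SMOC2 fell from 2.68 ± 0.548 to 0.775 ± 0.234 CPM (log2 change -1.05, SE 0.13, adjusted p = 0.000603), with 13.7% of its transcript shared with other genes, and SMOC1 rose from 0.523 ± 0.0838 to 1.19 ± 0.2298 CPM (log2 change 0.52, SE 0.08, adjusted p = 0.00186). SPARCL1 was under 1 CPM on average in both groups (log2 difference -0.34, SE 0.22, adjusted p = 0.258) and was called lower without low glucose replicate 2 (-0.56, adjusted p = 0.00924), and SPON1 was near the detection limit (adjusted p = 0.869). TNC, tenascin of wounds and tumor stroma, was at 119 ± 2.48 CPM in low and 124 ± 15.2 CPM in high glucose, a difference of 0.05 (SE 0.09, adjusted p = 0.696). Without high glucose replicate 1, where TNC was lowest, the difference was 0.14 and passed as a rise (adjusted p = 0.00654).

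In the class of other glycoproteins most genes fell. Of 12 genes, 8 fell (66.7%, beside 24.8% of all genes), 1 rose (8.33%, beside 22.0%) and 3 did not pass the test. Among the 10 that reached 5 CPM, 8 fell (80.0%, beside 33.8% of all genes of that level) and 1 rose (10.0%, beside 33.3%). Falls of at least 1 on the log2 scale were seen for 7 of those 10, beside 3.90% of all genes of that level. The median log2 change of the 12 was -1.25 (range -1.93 to 0.63). The class summed to 4806 ± 52.8 CPM in low and 2958 ± 375 CPM in high glucose, 1.62 times higher at low glucose, beside 1.75 times for the elastic fiber, 1.68 for the matricellular and 1.35 for the basement membrane class. FN1 made up most of this sum, and without it the class summed to 1194 ± 15.7 CPM in low and 420.4 ± 14.8 CPM in high glucose, a ratio of 2.84. SPARC made up most of the matricellular sum, and without SPARC that class had a ratio of 0.93, its sum being higher at high glucose.

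FN1 (chr2:215360865-215436068), fibronectin, was at 3627, 3650.3, 3549 and 3621 CPM in the low glucose libraries and at 2008, 2626, 2712 and 2804 CPM in the high glucose libraries. High glucose replicate 1 was well below the other libraries of its group, and all 4 lay below the low glucose values. FN1 fell by 0.52 (SE 0.12, adjusted p = 0.00848), and without high glucose replicate 1 by 0.41 (adjusted p = 0.000241).

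Beside OLFML2A, the other 2 olfactomedin-like genes fell to nearly the same extent. OLFML2B (chr1:161983192-162023869), a secreted glycoprotein that binds chondroitin sulfate, was at 171, 177, 171 and 174 CPM at low glucose and at 57.6, 60.7, 59.5 and 55.3 CPM in high glucose, a log2 change of -1.56 (SE 0.03, adjusted p = 3.42e-07). OLFML3 (chr1:113979474-113982253), a secreted scaffold protein, was at 299, 298, 284 and 280.1 CPM and at 101, 87.1, 93.9 and 94.2 CPM, a change of -1.62 (SE 0.05, adjusted p = 1.43e-06). In each case the ratio of low to high was close to that of OLFML2A, at 2.97 and 3.08 beside 3.14. MXRA5 (chrX:3308565-3346652), a secreted protein with leucine-rich and immunoglobulin repeats, was at 279, 293, 281 and 281 CPM in low and 64.2, 101, 106 and 108 CPM in high glucose. High glucose replicate 1 was far below its group, and the log2 change of -1.60 (SE 0.16, adjusted p = 0.000199) became -1.43 without it. Of the MXRA5 transcript, 16.5% was shared with other genes.

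MATN2 (chr8:97869064-98036724), a matrilin of many connective tissues, was at 78.3, 76.4, 82.1 and 77.5 CPM at low glucose and at 28.4, 29.3, 25.7 and 27.2 CPM in high glucose. Against the rise of MATN3 it fell by 1.47 (SE 0.04, adjusted p = 1.43e-06). COCH (chr14:30874559-30895615), cochlin of the inner ear, was at 44.4, 45.5, 45.5 and 45.5 CPM and at 21.6, 21.7, 21.8 and 22.2 CPM. The replicates were close together, with a log2 change of -1.02 (SE 0.02, adjusted p = 3.28e-07). STRN3, a gene on the other strand, rose from 30.5 to 46.6 CPM. Its exons overlap 32.9% of the annotated exon bases of COCH together with those of a gene listed by identifier only. ECM1, a glycoprotein of skin, was at 3.94 ± 0.579 and 3.81 ± 0.583 CPM (adjusted p = 0.84), and SRPX at 10.6 ± 0.7604 and 8.52 ± 1.81 CPM (log2 difference -0.31, SE 0.14, adjusted p = 0.124). Without high glucose replicate 1 SRPX was called lower (-0.40, adjusted p = 0.0409). SRPX2, a ligand of the urokinase receptor, was at or below the detection limit in nearly every library (log2 difference -0.10, SE 0.06, adjusted p = 0.241) and was called lower without high glucose replicate 4 (-0.16, adjusted p = 0.0163). Whether the counting used the strand of the reads is not given in the sources used here for these libraries, so reads of overlapping genes on opposite strands may not have been told apart for the 8 genes with more than 10% of such overlap (LAMA1, NID2, HSPG2, MFAP2, THBS2, THBS3, COCH and SRPX2).

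**Figure D3:**
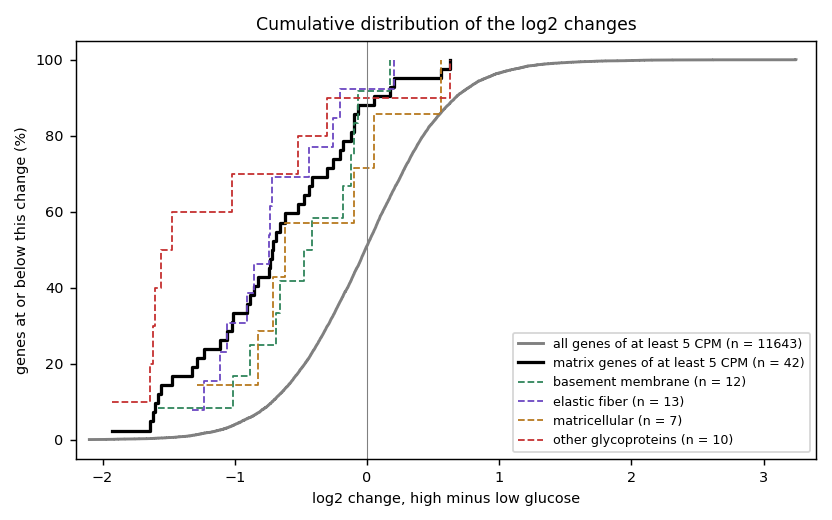
Cumulative share of genes (percent) by log2 change, high minus low glucose, for all 11643 genes of at least 5 CPM (grey), the 42 matrix genes of that level (black) and the 4 classes (dashed). The matrix genes lie to the left of all genes, with medians of -0.71 and -0.01, and the class of other glycoproteins lies farthest left, with a median of -1.52.

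Summed over all 56 genes, the matrix transcripts took 3.73% of the summed CPM of a library at low glucose and 2.32% at high glucose (32835 ± 356 and 20082 ± 176 CPM), with no overlap between the groups. SPARC alone made up most of this sum. Without SPARC the sum was 11130 ± 86.5 CPM in low and 7856 ± 551 CPM in high glucose, a ratio of 1.42, and high glucose replicate 1 was the lowest library at 7039 CPM.

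**Figure D4:**
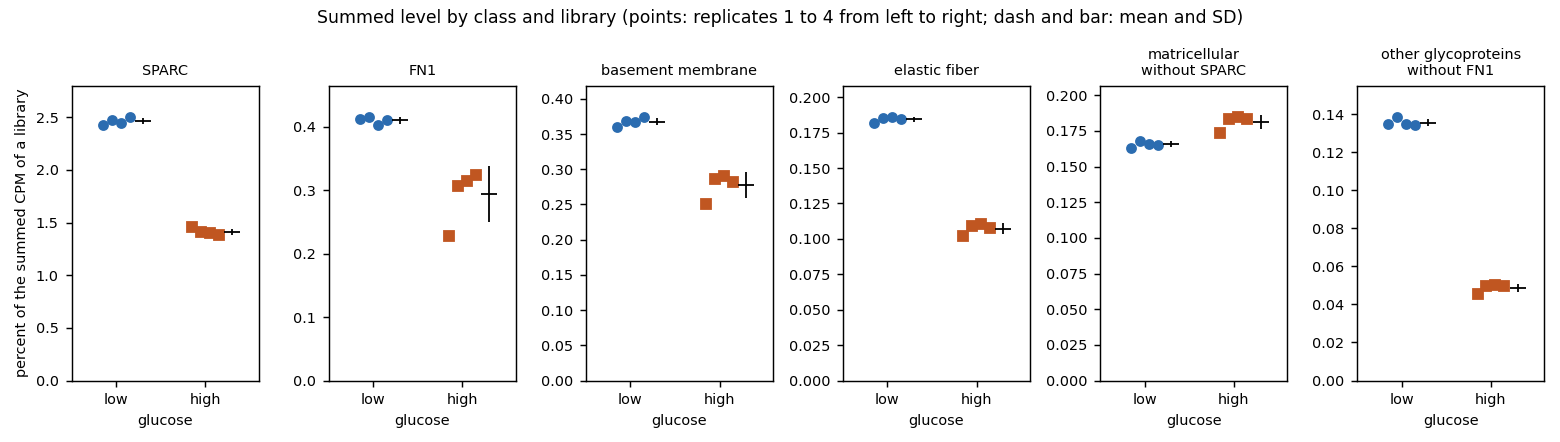
Percent of the summed CPM of each library taken by SPARC, by FN1 and by the classes, for replicates 1 to 4 from left to right in each group, with the mean and SD beside them. Low glucose libraries lie higher in 5 of the 6 panels, and the matricellular genes without SPARC lie higher at high glucose.

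The proportions of related genes within a library were compared for 30 pairs of at least 5 CPM, as the log2 ratio of the 2 genes, and tested by exact permutation (2-sided) of the group labels, for which 70 assignments exist and no p can go below 0.0286. The pairs described here were chosen after their values were seen. The ratios of 18 pairs did not overlap between the groups (p = 0.0286 each by the exact permutation test, 0.0476 adjusted over the 30 pairs), but this held for 64.5% of all pairs of genes of that level, so a change in ratio is no more common in these families than elsewhere in the table. The ratio of MATN2 to MATN3 was 2.10 lower at high glucose on the log2 scale, that of NID1 to NID2 was 1.76 higher and that of THBS1 to THBS3 was 1.85 higher. Within the mesenchymal laminin trimer the ratio of LAMA4 to LAMB1 was -1.17 ± 0.05 at low and -1.20 ± 0.09 at high glucose (difference -0.03, exact permutation p = 0.714), while both chains were lower against LAMC1, by 0.51 and 0.48. The 3 ratios among OLFML2A, OLFML2B and OLFML3 overlapped between the groups, with differences of -0.08, -0.02 and 0.06.

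**Figure D5:**
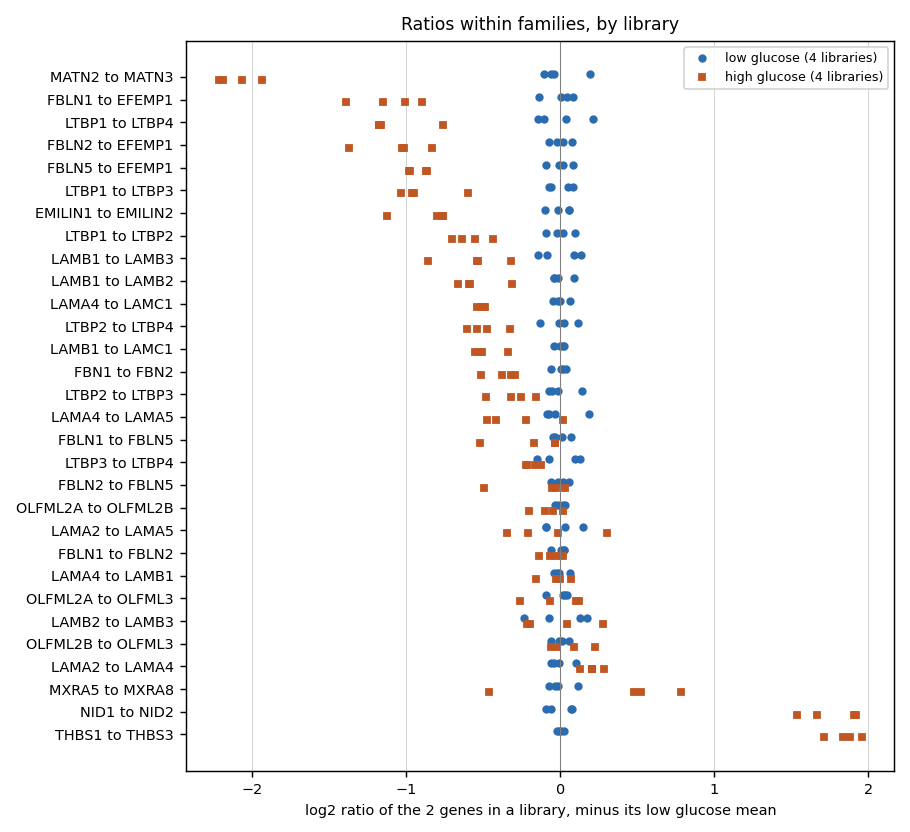
Log2 ratio of 2 related genes in each library, minus its mean at low glucose, for 30 pairs (circles, 4 low glucose libraries, squares, 4 high glucose libraries). The ratios of MATN2 to MATN3, NID1 to NID2 and THBS1 to THBS3 lie farthest from 0 at high glucose, and those among the olfactomedin-like genes lie around 0.

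Of 28 family members in the table that are not on the list, 14 fell (50.0%, beside 24.8% of all genes), 6 rose (21.4%, beside 22.0%) and 8 did not pass, with a median log2 change of -0.39. Among the 16 that reached 5 CPM, 10 fell and 5 rose, where 33.8% of all genes of that level fell and 33.3% rose. NTN4, a netrin that binds laminin γ1 chains and loosens laminin networks, rose from 26.8 ± 0.425 to 56.6 ± 1.05 CPM (log2 change 1.05, SE 0.02, adjusted p = 3.55e-07). FSTL1, a secreted SPARC relative, fell from 1419.7 ± 15.5 to 957 ± 18.6 CPM (log2 change -0.57, SE 0.03, adjusted p = 1.04e-05), and LAMC3, the γ3 chain of laminin, from 30.1 ± 2.21 to 10.95 ± 1.001 CPM (log2 change -1.38, SE 0.08, adjusted p = 1.27e-05).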

How the data were processed

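The authors deposited a single table of CPM scaled with TMM factors from edgeR, per the file and the study's methods, for 8 libraries (4 low glucose, 4 high glucose), sequenced on an Illumina HiSeq. The processing notes in the labels name hg38, whereas the methods, written first for tumors, name Trimmomatic, TopHat and hg19, so the build and the counting tool of these libraries are not settled, and gene positions are those of the annotation alone. Of 21077 lines, 18 were Y copies of pseudoautosomal genes and were left out. Only 73.2% to 74.6% of low values were whole multiples (tolerance 0.02) of the value of 1 read, so reads were not recovered and no count test was run.

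Values were analysed as log2(CPM + 1) with limma 3.58.1 in R 4.3.3 (lmFit, eBayes with a trend, 2-sided, without covariates). Adjustment of p-values followed Benjamini and Hochberg and covered all 21059 genes. A fold change on this scale understates the change of low genes. Ratios within families were compared with exact permutation tests (scipy 1.17.1). Transcript lengths, strand overlaps and shared sequence (words of 31 bases) came from GENCODE 44 on GRCh37, and positions and promoters from RefSeq GRCh38.p14. Only the limma fit was tested on simulated data, which held no trend with transcript length. Groups and replicate numbers came from the labels. Values in every library were given for genes with a mean of at least 5 CPM in the higher group, an adjusted p under 0.05 and a log2 change of at least 0.5 in size, group means for genes of at least 100 CPM, and at most 3 genes with the smallest adjusted p for each list of related genes. The genes, classes and lists were chosen with earlier results of these data known. Alternatives were a pseudocount of 0.1, a minimum mean of 5 CPM, median-of-ratios scaling, quantile normalization, removal of the trend with transcript length (spline with 5 degrees of freedom, genes of at least 1 CPM), a replicate block, no variance trend, leaving out each library, and, added after the data were seen, removal of the length trend without high glucose replicate 1.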

Additional observations from a re-analysis of the deposited data

Results flagged for a closer look

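A library far from the other 3 of its group, by Dixon's criterion for 4 values at the 95% level, was found in 13 of 110 groups of matrix gene values, where chance gives about 5.5. Of these, 6 were at high and 7 at low glucose, and 4 came from high glucose replicate 1. That library was low for FBN2 (140.0 CPM) and MXRA5 (64.2 CPM) and high for MFAP2 (31.8 CPM) and SPARC (12829 CPM). High glucose replicate 4 was low for LAMB2 (133 CPM) and high for SRPX2 (0.267 CPM, about 3 reads). Low glucose replicate 3 was high for EFEMP1 (109 CPM) and POSTN (169.6 CPM) and low for MATN3 (12.8 CPM). Low glucose replicate 1 was high for LTBP1 (321 CPM) and low for COCH (44.4 CPM), low glucose replicate 2 was high for MXRA5 (293 CPM) and low glucose replicate 4 was high for ECM1 (4.81 CPM). In FBN2, MXRA5, MFAP2, SPARC, POSTN, MATN3, LTBP1, COCH and EFEMP1 the library that stood apart still lay on its own group's side of the other group.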

How the results depend on the processing

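Of the 42 genes called, 36 kept their call and direction under each of the 16 alternatives in which they were tested, the exceptions being SPARC, TGFBI, NID1, LAMA1, EFEMP1 and EFEMP2, and all 36 lower genes remained lower without high glucose replicate 1. The median change of the list was -0.54 with quantile normalization and -0.70 with a pseudocount of 0.1. Matricellular genes called lower numbered 4 with a minimum mean of 5 CPM, in place of 8, since SMOC2, THBS2 and COMP were not tested there and TGFBI did not pass, and matricellular genes called higher numbered 1 with that filter and with the length trend removed (48 genes tested), with or without high glucose replicate 1, in place of 2. Basement membrane genes called higher numbered 1 with the 5 CPM filter, with quantile normalization and with the length trend removed (with or without high glucose replicate 1), and 0 with the replicate block, in place of 2; leaving out 1 library gave 0 to 2. Elastic fiber genes called higher numbered 0 with quantile normalization, in place of 1. The replicate numbers did not pair the libraries: same-numbered libraries deviated together with correlations of 0.07, -0.03, 0.01 and -0.04 and only replicate 1 matched its own number best. With the replicate block LAMA1, NID1, EFEMP2, SPARC and TGFBI were no longer called (adjusted p = 0.117, 0.0745, 0.0507, 0.113 and 0.106). TGFBI was also not called with the 5 CPM filter, quantile normalization and the length trend removed (adjusted p = 0.0533, 0.0655 and 0.099), nor NID1 with quantile normalization (0.0762), whereas calls were gained, all as lower, by LAMC1, LTBP4 and SRPX with the 5 CPM filter (0.0217, 0.0309 and 0.0489), by LAMC1 with quantile normalization (0.0203), by LAMC1 and LTBP4 with the length trend removed (0.000256 and 0.0214) and by LAMB2, LAMC1, AGRN, LTBP4 and SRPX with that trend removed and high glucose replicate 1 left out (0.0107, 9.2e-05, 0.0277, 0.0143 and 0.0395). With quantile normalization SPARC had a change of 0, by construction, because it ranked 1 in every library.

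Uncalled genes changed sign as follows. With quantile normalization LAMB3 was at 0.041, TNC at -0.083 and ECM1 at 0.12. With the length trend removed ECM1 was at 0.028, and at 0.015 without high glucose replicate 1 as well. Leaving out 1 library gave -0.13 to 0.011 for AGRN (above 0 without high glucose replicate 4), -0.24 to 0.031 for MFAP4 (above 0 without high glucose replicate 1), -0.087 to 0.11 for SPON1 (-0.03 without low glucose replicate 4, lowest without high glucose replicate 4) and -0.085 to 0.050 for ECM1 (0.04 without low glucose replicate 4, highest without high glucose replicate 2). The causes were not tested. Depth limits the 7 genes under 1 CPM, where differences of a few reads decide the value.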

Other observations

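Of 26 receptor genes for these matrix proteins (integrins, syndecans, dystroglycan and others), 10 fell (38.5%, beside 24.8% of all genes), 5 rose (19.2%, beside 22.0%) and 11 did not pass the test. Of the 21 that reached 5 CPM, 9 fell and 5 rose, where 33.8% of all genes of that level fell and 33.3% rose. The 26 had a median log2 change of -0.04 beside -0.01 for all genes. ITGA4, whose integrin binds fibronectin, fell from 91.2 ± 2.18 to 46.9 ± 1.87 CPM (log2 change -0.95, SE 0.03, adjusted p = 2e-06). ITGA11, a collagen receptor of fibroblasts, fell from 121 ± 2.05 to 52.3 ± 4.59 CPM (log2 change -1.20, SE 0.06, adjusted p = 8.5e-06), and ITGB4, the integrin chain that binds epithelial laminin, from 16.6 ± 1.06 to 4.78 ± 0.567 CPM (log2 change -1.61, SE 0.09, adjusted p = 9.92e-06).

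Over the 42 matrix genes of at least 5 CPM, the Spearman correlation across genes of the log2 change with transcript length was 0.12 and with the level at low glucose -0.06. These are descriptions across genes measured in the same libraries, and genes are not independent replicates. Of the 6 mesenchymal markers, all of at least 5 CPM, 3 fell (50.0%) and 2 rose (33.3%). Among all genes of that level, 33.8% fell and 33.3% rose. SNAI2 fell by 0.76 (SE 0.05, adjusted p = 2.29e-05), VIM fell by 0.47 (SE 0.08, adjusted p = 0.00224), and CDH2 rose by 0.44 (SE 0.03, adjusted p = 4.63e-05). The summed level of the 6 markers was 4539 to 4589 CPM at low and 3230 to 3651 CPM at high glucose, and its part in the matrix result was not tested.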
